A study of Mus musculus with 8 samples.

Results

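The miR-29 family was followed through 8 small RNA libraries of CD8+ T cells from mouse spleen. Its 7 mature miRNAs are miR-29a-3p, miR-29b-3p, miR-29c-3p, miR-29a-5p, miR-29b-1-5p, miR-29b-2-5p and miR-29c-5p. In the table each name begins with mmu-, for mouse. They were taken by name from the deposited table and fill 8 of its 2128 rows, since miR-29b-3p has a row for each of its precursors. The whole table holds 1978 mature names. The libraries form 4 groups of 2, which are mCre MP, WT MP, mCre TN and WT TN. CD8+ cells enriched with beads were stained for CD44, CD122, CD8 and CD4, sorted, and lysed for small RNA sequencing. The series title links Cre, a recombinase used to delete marked sequences, with miR-29 and speaks of naive T cell subsets. The labels name no floxed or deleted allele, no promoter for Cre and no strain. MP in the sample titles appears as VM in the design text, and mCre as Cre-; none of these terms is spelled out there. Spleens were adult or neonatal by the common protocol, which does not tie an age to a library. Whether replicates are different mice is also not stated, and p-values therefore reflect library-to-library spread that may be technical.

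miR-29 is a family of small RNAs that bind messenger RNAs through a shared seed and lower their output. In T cells its known targets include Ifng and the transcription factors Tbx21 and Eomes, which drive effector and memory programmes, and in other tissues it represses collagens and DNA methyltransferases. A miRNA hairpin is cut into a 5p and a 3p arm. For miR-29 the 3p arm is the guide that loads into Argonaute, and the 5p arm, the passenger strand, is usually degraded.

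The sequences show which members can be told apart and which cannot. All 7 members were matched in RefSeq (GRCm38.p6). Each is written 5′ to 3′ with its seed, bases 2 to 8, in capitals.
miR-29a-3p: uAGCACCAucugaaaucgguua
miR-29b-3p: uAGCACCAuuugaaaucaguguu
miR-29c-3p: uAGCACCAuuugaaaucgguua
miR-29a-5p: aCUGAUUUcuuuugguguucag
miR-29b-1-5p: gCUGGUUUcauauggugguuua
miR-29b-2-5p: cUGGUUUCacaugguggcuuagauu
miR-29c-5p: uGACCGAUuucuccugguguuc
The 3 guides share the seed AGCACCA, which no other mouse miRNA among 1679 mature names carries. Counted from the 5′ end, miR-29c-3p differs from miR-29a-3p by 1 base, C10U, and miR-29b-3p differs from miR-29a-3p at C10U, G18A, U21G and A22U over the 22 shared positions. The end of miR-29b-3p, bases 18 to 23, is the hexamer AGUGUU, a motif known in human cells for sending miR-29b to the nucleus. The 5p arms have 4 different seeds. miR-29b-1-5p and miR-29b-2-5p are still alike, with 19 of 21 aligned bases identical at an offset of 1, and miR-29b-3p is the same from both of its hairpins.

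The 4 hairpins lie in 2 clusters. Mir29a (chr6:31062660-31062747) and Mir29b-1 (chr6:31063023-31063093) are on the minus strand, 275 bases apart. GENCODE M21 places Mir29b-1 in an exon of the lincRNA Gm27019 on the same strand, and Mir29a in no other gene. Mir29b-2 (chr1:195037040-195037120) and Mir29c (chr1:195037547-195037634) are on the plus strand, 426 bases apart, within exons of A330023F24Rik, a noncoding gene, and facing exons of Cd46 on the other strand. The hairpins with a name of their own for each arm are Mir29a and Mir29c, of which Mir29a gave the more uneven arms. They are shown with both mature arms in capitals.
Mir29a: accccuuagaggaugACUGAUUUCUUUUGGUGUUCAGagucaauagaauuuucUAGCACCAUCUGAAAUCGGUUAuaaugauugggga
Mir29c: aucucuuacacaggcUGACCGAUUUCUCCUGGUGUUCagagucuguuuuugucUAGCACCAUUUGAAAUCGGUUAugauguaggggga
In both hairpins the 5p arm comes first and the 3p guide after the loop.

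Library totals ran from 1936597 to 5230975 counts, a 2.70-fold range. A miRNA table holds no CD8 marker, so the cell type was read from 5 lymphocyte miRNAs (miR-150-5p, miR-342-3p, miR-181a-5p and both arms of miR-142a), which took 4.06% to 17.9% of each library. Over the 8 libraries, myeloid miRNAs (both arms of miR-223) summed to 1.40 to 13.7 per 1000000 counts, erythroid miRNAs to 0 to 10.01, endothelial and stromal miRNAs to 22.2 to 111.7, and epithelial miRNAs to 724.5 to 3062. All markers were in the table; miR-144-3p was at 0 in 3 groups, miR-145a-5p in 3, miR-144-5p in mCre MP and miR-205-5p in WT TN. The TN replicate 2 libraries hold both ends of the range in miR-29. The library labelled mCre TN replicate 2 had the highest family share of the 8, 1.59% of its counts, followed by WT MP replicate 2 at 1.14%. The library labelled WT TN replicate 2 had the lowest, 0.0774%, level with mCre MP replicate 1 at 0.0787%. The labels give no means to tell whether these 2 TN libraries were exchanged, which was not tested and would alter every TN value by genotype. The fitted changes of miR-29a-3p are therefore given with and without both libraries. Most ratio tests and the list of T cell miRNAs are given only with them.

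miR-29a-3p, the guide of the chromosome 6 cluster, made up nearly all of the family. It gave 124260 of the 130130 family counts (95.5%), against 5091 for miR-29b-3p and 471 for miR-29c-3p. The 4 passenger arms together gave 308, or 0.237% of the family (95% Wilson interval 0.212% to 0.265%; such intervals cover counting error only). By rank among the detected names, miR-29a-3p was 13th in the library labelled mCre TN replicate 2 and 62nd in mCre MP replicate 1.

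In CPM, the count per 1000000 counts, after TMM scaling, which adjusts for library composition, mmu-miR-29a-3p was at 833 and 1498 in mCre MP, against 3105 and 11656 in WT MP. Among TN libraries it was at 1409 and, in the library labelled mCre TN replicate 2, 15389.8, against 2752 and, in the library labelled WT TN replicate 2, 802. Both mCre MP libraries thus lay below both WT MP libraries, while the TN genotypes overlapped. Group means were 1165 ± 470 CPM in mCre MP, 7380.2 ± 6047 in WT MP, 8399.6 ± 9886 in mCre TN and 1777 ± 1379 in WT TN (SD, n = 2 each). From lowest to highest mean the order was mCre MP, WT TN, WT MP and mCre TN, and of the neighbours in it only WT TN and WT MP did not overlap in their libraries.

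mmu-miR-29b-3p, which either cluster can supply, had 38.7 and 70.9 CPM in mCre MP and 142.4 and 440.1 in WT MP. In TN it had 53.7 and, in the library labelled mCre TN replicate 2, 663.8, against 103.9 and, in the library labelled WT TN replicate 2, 38.3. Its 8 libraries ranked in the same order as those of miR-29a-3p. mmu-miR-29c-3p, the guide found only in the chromosome 1 cluster, had 5.83 and 5.45 CPM in mCre MP and 20.3 and 43.6 in WT MP. In TN it had 5.98 and 45.1 in the libraries labelled mCre, against 12.05 and 0 in those labelled WT, where the 0 is a deposited value of 0.5 rounded down. The mCre MP libraries were the lower pair for all 3 guides within MP, as they were for 37.4% of all miRNAs tested.

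**Figure D1:**
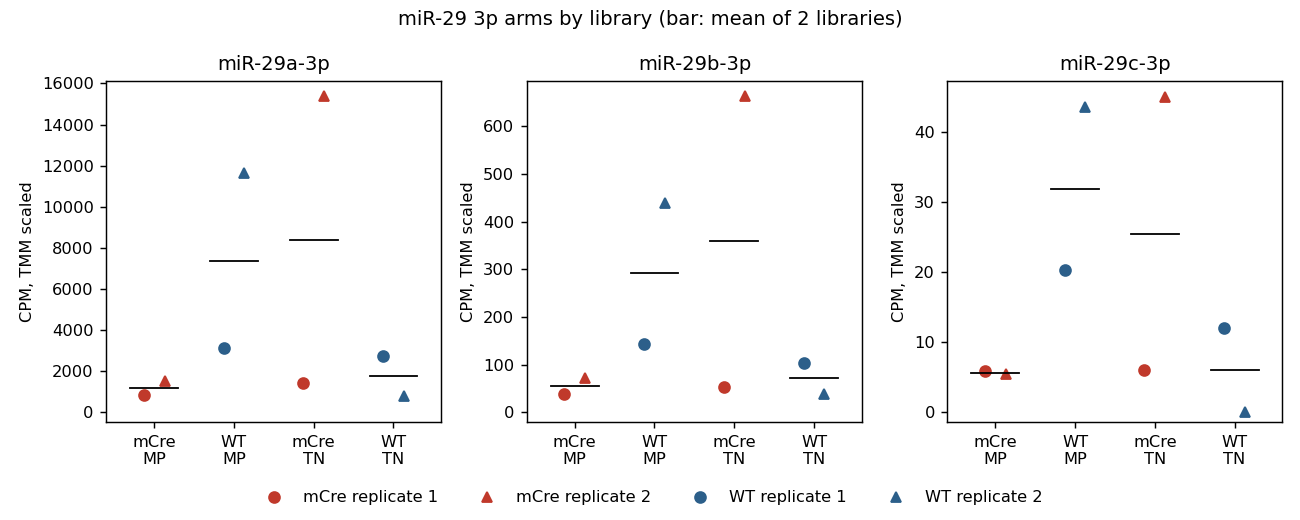
Levels of the 3 guide arms in each library, in CPM after TMM scaling, by group; circles are replicate 1, triangles replicate 2 and bars the mean of 2 libraries. In each panel the mCre MP libraries lie below the WT MP libraries, as for 37.4% of all miRNAs tested, and mCre TN replicate 2 is the highest of the TN libraries.

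Comparing mCre with WT asks how miR-29 differs with the genotype that the series title ties to it. The comparisons used edgeR's quasi-likelihood test on all 382 miRNAs that passed a filter on low counts, with Benjamini-Hochberg adjustment over all 382. Of the 7 members 6 passed the filter, and miR-29b-2-5p, with 19 counts in all, did not. Within MP the log2 change of miR-29a-3p was -2.66 ± 1.18 (SE, edgeR adjusted p = 0.411), that of miR-29b-3p -2.41 ± 1.16 (edgeR adjusted p = 0.411) and that of miR-29c-3p -2.49 ± 1.48 (edgeR adjusted p = 0.453). Leaving out 1 library at a time, the miR-29a-3p change ran from -3.43 to -1.42, with -1.42 without WT MP replicate 2. Of the 6 members 0 passed the threshold of 0.05 (background 0% of 382), 1 had an unadjusted p under 0.05 (background 10.7%), and DESeq2 called 0. Of the same 6, 4 were lower in mCre MP with no overlap, read against a background of 37.4% of the miRNAs tested, and 0 were higher without overlap (background 27.2%). Among these 4, miR-29a-5p had 0 counts in mCre MP and passed the low-count filter through WT MP and mCre TN libraries alone. Its position and its unadjusted p here are therefore no independent evidence. The median log2 change was -2.45 over the 6 members, also with miR-29a-5p at its bound, and -0.23 over all 382. That median over all miRNAs was -0.16 with RLE factors and -0.48 with total count scaling, and relative to it miR-29a-3p stood at -2.43, -2.41 and -2.37 under the 3 scalings.

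The spread of the TN replicate 2 libraries enters that test, since the 4 groups share an estimate of spread. Without both of them, which were picked for their miR-29 share so that the p is no independent evidence, the log2 change of miR-29a-3p for mCre MP was -2.65 ± 0.56 (SE, edgeR adjusted p = 0.0153), that of miR-29b-3p -2.39 ± 0.56 (edgeR adjusted p = 0.0153) and that of miR-29c-3p -2.52 ± 0.66 (edgeR adjusted p = 0.021). All 3 were lower in mCre MP. Leaving out only the library labelled mCre TN replicate 2 gave an edgeR adjusted p of 0.441 for miR-29a-3p, and only that labelled WT TN replicate 2 gave 0.24. In the fit without both, 63 of 433 miRNAs passed, these 3 among them. Each marker list was also lower in mCre MP than in WT MP, without overlap. Of the 382 single miRNAs tested in all 8 libraries, 37.4% were lower in mCre MP without overlap and 27.2% higher. Lymphocyte miRNAs took 4.06% and 6.43% of counts in mCre MP and 10.2% and 10.6% in WT MP. Per 1000000 counts, myeloid miRNAs were at 1.40 to 2.94 in mCre MP and 10.7 to 13.7 in WT MP, erythroid ones (miR-451a and both arms of miR-144) at 0 to 1.40 and 3.83 to 10.01, endothelial and stromal ones at 34.1 to 41.2 and 65.0 to 111.7, and epithelial ones at 1488 to 1868 and 2192 to 3062. Their part in the miR-29 difference was not tested. In such bulk libraries fewer cells of a type and less RNA per cell cannot be told apart.

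Within TN the libraries labelled mCre were compared with those labelled WT, and the fitted change of miR-29a-3p was 2.24 ± 1.16 (log2, SE, edgeR adjusted p = 0.957). Here 0 of 6 members passed (background 0%), 0 had an unadjusted p under 0.05 (background 3.14%), and DESeq2 called 0. miR-29a-5p was the single member of the 6 without overlap, higher in mCre, against a background of 15.7% (6.81% lower). That rests on TMM scaling: replicate 1 had 1.99 CPM in mCre and 1.87 in WT, and unscaled 2.29 and 2.31 per 1000000, where the groups overlap. Since miR-29a-5p passed the low-count filter through no WT TN library, its position here is no independent evidence. Lymphocyte miRNAs took 11.4% to 17.9% of counts in the libraries labelled mCre TN and 4.75% to 8.15% in those labelled WT TN. Myeloid ones were at 7.26 to 10.3 and 6.94 to 7.23 per 1000000, and the other marker lists overlapped. The part of these lists was not tested. Replicate 1 alone held 1409 CPM of miR-29a-3p in mCre and 2752 in WT. Without both replicate 2 libraries, which leaves 1 library per genotype in TN with its spread taken from the MP groups, the change was -0.98 ± 0.75 (log2, SE, edgeR adjusted p = 0.994). Leaving out only mCre TN replicate 2 turned the miR-29a-3p change to -0.38, while leaving out only WT TN replicate 2 kept it at 1.54. miR-29b-3p and miR-29c-3p also turned without mCre TN replicate 2, to -0.47 and -0.11. The direction of these guides in TN therefore rested on the library labelled mCre TN replicate 2.

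The difference of the genotype effect between MP and TN was -4.90 ± 1.66 for miR-29a-3p (log2, SE, edgeR adjusted p = 0.301) and -4.74 ± 1.63 for miR-29b-3p (edgeR adjusted p = 0.301). Of 6 members 0 passed (background 0%) and 3 had an unadjusted p under 0.05 (background 14.1%). Among these 3, miR-29a-5p passed the low-count filter through WT MP and mCre TN libraries alone, so its p is no independent evidence. DESeq2 called 2, miR-29a-3p and miR-29b-3p, against 16 over all 382 miRNAs. Without both TN replicate 2 libraries the value for miR-29a-3p was -1.67 ± 0.92 (edgeR adjusted p = 0.769). Averaged over both subsets, the mCre change of miR-29a-3p was -0.21 ± 1.52 (log2, SE, edgeR adjusted p = 0.992), with 0 of 6 members past the threshold by edgeR and by DESeq2 (background 0%), 0 at an unadjusted p under 0.05 (background 1.31%), and all 6 overlapping (background 0.785% higher and 0.524% lower without overlap). Without both TN replicate 2 libraries it was -2.10 ± 0.53 (log2, SE). That fit keeps 2 libraries per genotype in MP and 1 in TN, so its average leans to MP. By subset, the miR-29a-3p change without them was -2.65 in MP and -0.98 in TN. The left-out libraries were picked for their miR-29 share, so this value is no independent evidence.

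Comparing MP with TN asks how miR-29 differs between the sorted subsets that the series sets side by side. In mCre cells, the miR-29a-3p change was -2.85 ± 1.19 (log2, SE, edgeR adjusted p = 0.229) and that of miR-29b-3p -2.71 ± 1.17 (edgeR adjusted p = 0.229). By edgeR 0 of 6 members passed (background 0%) and 4 had an unadjusted p under 0.05 (background 21.5%). DESeq2 called 3, miR-29a-3p and miR-29b-3p lower and miR-29c-5p higher, against 44 over all 382 miRNAs. miR-29c-5p passed the low-count filter through MP libraries alone, so its call and its position here are no independent evidence. The same limit holds for the unadjusted p and the position of miR-29a-5p, which passed through WT MP and mCre TN libraries alone. Among the 6 in mCre cells, 2 were lower in MP without overlap (background 35.6%) and 1 was higher (background 29.6%). Lymphocyte miRNAs took 4.06% to 6.43% of counts in mCre MP and 11.4% to 17.9% in mCre TN. Per 1000000, myeloid ones were at 1.40 to 2.94 and 7.26 to 10.3, and erythroid ones at 0 to 1.40 and 2.87 to 5.13. Epithelial ones went the other way, at 1488 to 1868 in mCre MP and 724.5 to 1486 in mCre TN. Endothelial and stromal ones overlapped, at 34.1 to 41.2 and 41.1 to 61.6. The part of these lists was not tested. Without both TN replicate 2 libraries the miR-29a-3p value in mCre was -0.39 ± 0.64 (edgeR adjusted p = 0.718). In WT cells, the miR-29a-3p change was 2.05 ± 1.15 (log2, SE, edgeR adjusted p = 0.663), and all 6 tested members were higher in both MP libraries than in both TN libraries (background 26.2% higher and 13.4% lower). Among these members, miR-29c-5p passed the low-count filter through MP libraries alone, and miR-29a-5p through WT MP and mCre TN libraries alone. The positions of these members are no independent evidence. In WT cells 0 of 6 passed by edgeR (background 0%), 0 had an unadjusted p under 0.05 (background 8.12%), and DESeq2 called 0, against 12 over all 382 miRNAs. Lymphocyte miRNAs took 10.2% to 10.6% of counts in WT MP and 4.75% to 8.15% in WT TN. Per 1000000 counts, myeloid ones were at 10.7 to 13.7 in WT MP and 6.94 to 7.23 in WT TN, and endothelial and stromal ones at 65.0 to 111.7 and 22.2 to 58.2. Erythroid ones overlapped, at 3.83 to 10.01 and 1.55 to 5.62, as did epithelial ones, at 2192 to 3062 and 1137 to 2535. The part of these lists was not tested. Without both TN replicate 2 libraries the miR-29a-3p value in WT was 1.28 ± 0.69 (edgeR adjusted p = 0.383).

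**Figure D2:**
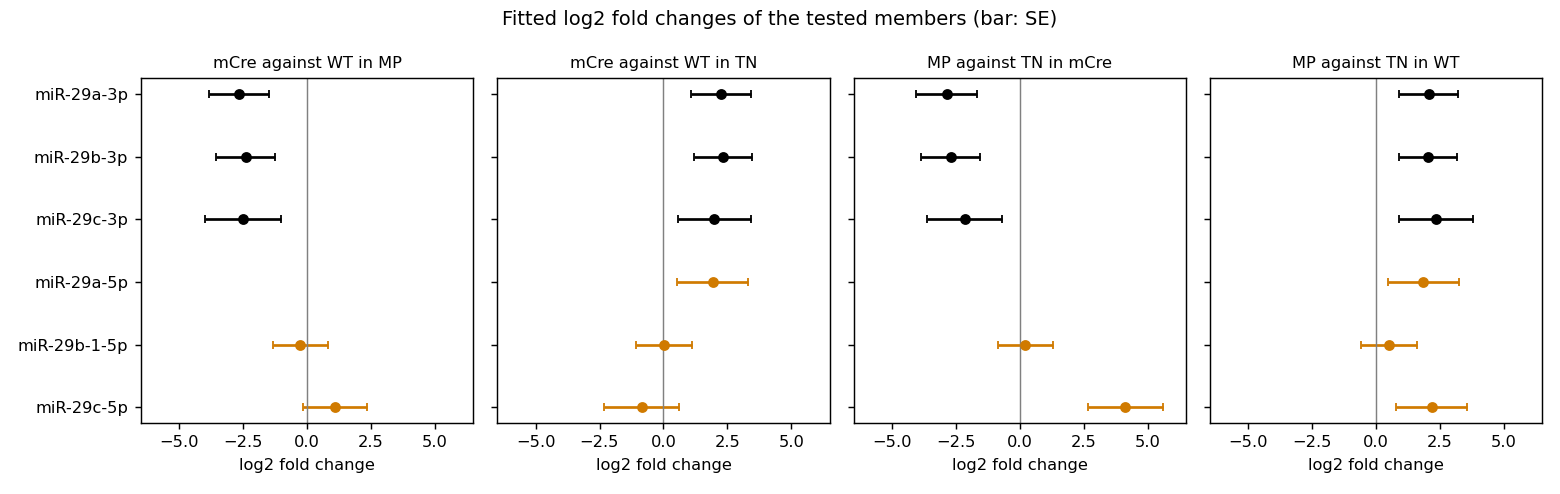
Fitted log2 fold changes with SE (bars) for the tested members in 4 comparisons, 3p arms in black and 5p arms in orange. The 3 guides move together in each panel, from -2.66 to -2.41 for mCre against WT in MP and from 1.99 to 2.33 in TN, while miR-29b-1-5p lies between -0.27 and 0.50; miR-29a-5p is left out where mCre MP, with 0 counts, is a side of the comparison.

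The clusters were then compared within each library, where no scaling between libraries is needed. The ratio of miR-29b-3p to miR-29a-3p was 4.64% and 4.74% in mCre MP and 4.59% and 3.78% in WT MP. In TN it was 3.81% and 4.31% in the libraries labelled mCre, against 3.78% and 4.77% in those labelled WT. The ratio thus stayed between 3.78% and 4.77% while miR-29a-3p itself spanned a 19.2-fold range of CPM. The standard deviation of the log2 ratio over the 8 libraries was 0.16, the smallest among the 381 miRNAs set against miR-29a-3p (median 1.72). The deposited table divides miR-29b-3p almost evenly between its 2 precursor rows, with a difference of 0 to 3 counts in each library, so it does not tell how much of miR-29b-3p each cluster supplied.

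miR-29c-3p reports on the chromosome 1 cluster alone. Its ratio to miR-29a-3p was 0.70% and 0.37% in mCre MP and 0.65% and 0.37% in WT MP. In the TN libraries labelled mCre it was 0.43% and 0.29%, and in WT TN replicate 1 it was 0.44%. The library labelled WT TN replicate 2 was apart at 0.0351%, from a deposited value of 0.5 against 1424.5. The guides differ by the single base C10U, and how many mismatches the counting allowed is not stated in the sources, so part of the few miR-29c-3p counts could be read from miR-29a-3p sequence; that was not tested.

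For neither ratio did the test separate the groups. Over 4 MP and 4 TN libraries the log2 ratio of miR-29c-3p to miR-29a-3p averaged -7.60 ± 0.50 and -8.63 ± 1.26 (SD, n = 4 each; two-sided exact permutation p = 0.171, adjusted p = 0.98 over 10 ratio tests). For mCre and WT libraries it averaged -7.84 ± 0.55 and -8.40 ± 1.43 (SD, n = 4 each; exact permutation p = 0.629, adjusted p = 0.98). The log2 ratio of miR-29b-3p to miR-29a-3p averaged -4.50 ± 0.15 over the MP and -4.59 ± 0.16 over the TN libraries (SD, n = 4 each; exact permutation p = 0.486, adjusted p = 0.98), and -4.52 ± 0.15 in mCre and -4.57 ± 0.18 in WT (exact permutation p = 0.686, adjusted p = 0.98). With 70 splits the smallest p is 0.0286, and 2 libraries against 2 cannot go below 0.333, so no test was made within a subset or genotype. Counting only products that belong to a single cluster, the chromosome 1 cluster gave 585 counts and the chromosome 6 cluster 124454, a chromosome 1 share of 0.468% (Wilson interval 0.432% to 0.507%). That share was highest in mCre MP replicate 1, at 2.42%. There 28 of the 39 chromosome 1 counts were the passenger miR-29c-5p. By the guides alone, the miR-29c-3p to miR-29a-3p ratio was 0.70% there and 0.65% in WT MP replicate 1.

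**Figure D3:**
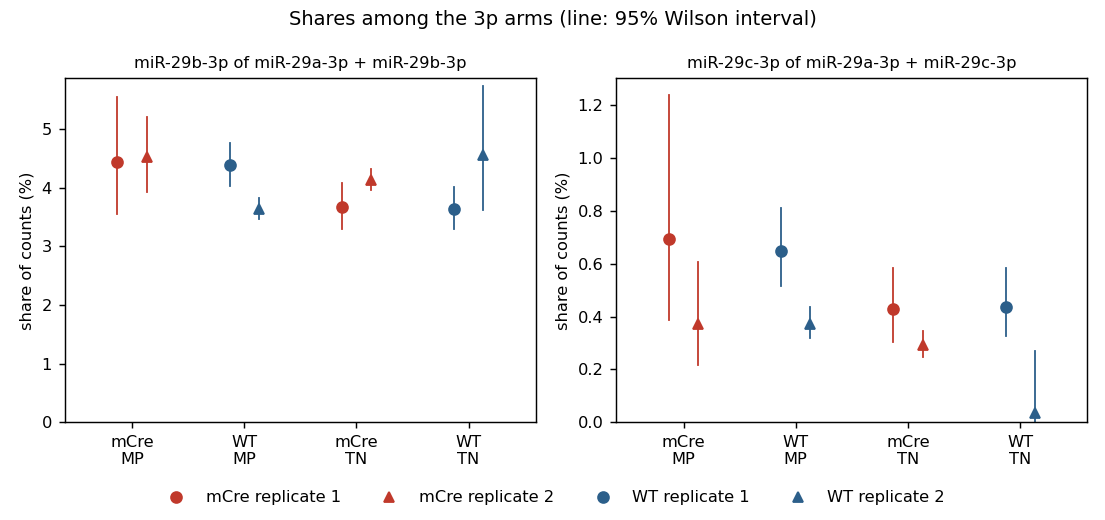
Shares of miR-29b-3p and of miR-29c-3p in their counts summed with miR-29a-3p, in percent per library, with 95% Wilson intervals for counting error. The miR-29b-3p share lies between 3.64% and 4.56% in all 8 libraries, and the miR-29c-3p share is lowest in the library labelled WT TN replicate 2, at 0.0351%; intervals use rounded counts, 0 in that library.

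The passenger arms were scarce. mmu-miR-29a-5p, the partner of the main guide, had 0 and 0 counts in mCre MP and 9 and 20 in WT MP. In TN it had 12 and 19 counts in the libraries labelled mCre and 7 and 0 in those labelled WT. The 3 libraries with 0 counts also had the fewest miR-29a-3p counts, 1424 to 3845. Over the group, mCre MP was at least 5.84-fold lower than WT MP after TMM scaling, with 3 counts taken as the floor over the group. The WT MP counts were taken without error there. miR-29b-2-5p, the passenger of the chromosome 1 miR-29b hairpin, had 0 and 0 counts in mCre MP and 3 and 6 in WT MP, with 5 and 3 in mCre TN and 2 and 0 in WT TN, so mCre MP was at least 1.81-fold lower than WT MP on the same floor.

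miR-29b-1-5p, the passenger of the chromosome 6 miR-29b hairpin, was flat in TN. It had 4.15 and 4.16 CPM in the mCre TN libraries and 4.28 and 3.94 in the WT TN libraries, in which miR-29b-3p spanned 38.3 to 663.8. In MP it had 0.53 and 8.96 CPM in mCre and 5.94 and 5.72 in WT. Its change for mCre against WT was -0.27 ± 1.08 in MP (log2, SE, edgeR adjusted p = 0.929) and 0.01 ± 1.09 in TN (edgeR adjusted p = 0.998), where the sign flips with RLE and total count scaling. The wide spread in mCre MP rests on 1 count in replicate 1 and 23 in replicate 2. The 2 miR-29b passengers together made up 8.59% of the miR-29b counts in mCre MP (Wilson interval 5.85% to 12.5%) and 2.37% in WT MP (1.81% to 3.09%), 1.97% in mCre TN (1.48% to 2.63%) and 5.198% in WT TN (3.54% to 7.56%). The libraries of a group differed widely in this share, with 1.35% and 11.2% in mCre MP, 4.53% and 1.64% in WT MP, 8.499% and 0.777% in mCre TN and 4.43% and 9.33% in WT TN, so the groups overlap.

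miR-29c-5p, the passenger of the chromosome 1 miR-29c hairpin, was higher in every MP library than in every TN library. It had 28 and 17 counts in mCre MP, 25 and 12 in WT MP, 6 and 0 in mCre TN and 7 and 0 in WT TN. In CPM the MP libraries had 14.8 and 6.62 in mCre and 6.75 and 3.27 in WT, and the TN libraries 0.997 and 0 in mCre and 1.87 and 0 in WT. All 4 MP libraries were above all 4 TN libraries, and miR-29c-5p was the only one of the 6 tested members for which that held (background 6.81% higher and 4.45% lower). Its TN counts were all under the filter's minimum count of 10, so it passed the filter through MP libraries alone. Its position and its calls for MP against TN are therefore no independent evidence of a difference. The MP libraries averaged 7.87 ± 4.91 CPM of miR-29c-5p and the TN libraries 0.718 ± 0.903 (SD over 4 libraries on each side). The change over both genotypes was 3.17 ± 1.09 (log2, SE, edgeR adjusted p = 0.261), and 0 of 6 members passed by edgeR (background 2.36%), with 1 at an unadjusted p under 0.05 (background 13.1%). DESeq2 called 1 of the 6, miR-29c-5p (DESeq2 adjusted p = 0.0321), against 28 over all 382 miRNAs. Without both TN replicate 2 libraries, which are the 2 at 0, the miR-29c-5p change was 2.19 ± 0.88 (edgeR adjusted p = 0.128). The guides overlapped between the subsets. Over both genotypes, the miR-29a-3p change was -0.40 ± 1.52 (edgeR adjusted p = 0.917) and that of miR-29c-3p 0.12 ± 1.55 (edgeR adjusted p = 0.957), which is -0.13 with total count scaling.

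**Figure D4:**
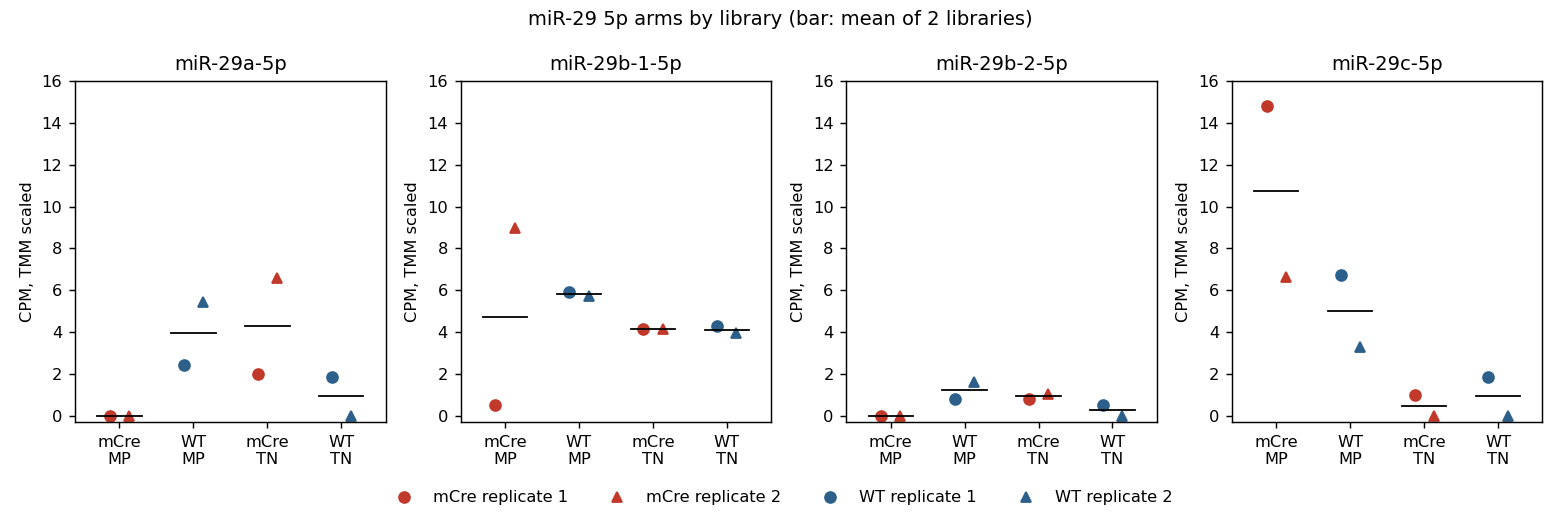
Levels of the 4 passenger arms in each library, in CPM after TMM scaling on a common axis; symbols are as for the guides and bars are the mean of 2 libraries. miR-29c-5p lies between 3.27 and 14.8 CPM in the MP libraries and between 0 and 1.87 in the TN libraries.

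Arm use was set against other hairpins. Over all libraries the 5p arm held 0.0539% of the miR-29a hairpin's counts (Wilson interval 0.0424% to 0.0684%) and 16.7% of those of miR-29c (13.9% to 20.0%). Among 179 hairpins with both arms named and at least 100 counts, a minimum set after the values were seen, the minor arm held a median of 2.09%, and 39 hairpins had a lower minor-arm share than miR-29a; ranked from the lowest, miR-29a was 40th and miR-29c 135th. For miR-29c the 5p arm held 71.8% of the hairpin in mCre MP replicate 1 (Wilson interval 56.2% to 83.5%) and 54.3% in replicate 2 (37.8% to 70.8%). The replicate 2 share rests on 17 against 14.33 counts, and its interval includes equal arms. Summed over these libraries, the 5p arm held 64.0% (52.6% to 74.5%). In WT MP it held 25% and 6.97%, or 13.6% when summed (10.03% to 18.2%). In TN replicate 1 it held 14.1% in mCre and 13.4% in WT, and in the library labelled mCre TN replicate 2 it held 0% (up to 2.87%). The summed TN share was 3.47% in mCre (1.60% to 7.36%) and 13.3% in WT (6.55% to 24.8%).

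The arm ratios did not separate subsets or genotypes by test. The library labelled WT TN replicate 2 had 0 and 0.5 counts for the arms of miR-29c, so its ratio is set by the 0.5 added to each count. Without it the log2 ratio of miR-29c-5p to miR-29c-3p averaged -0.93 ± 2.19 in 4 MP and -4.38 ± 3.16 in 3 TN libraries (SD; two-sided exact permutation p = 0.2, adjusted p = 0.571), and -2.25 ± 4.18 in 4 mCre and -2.62 ± 1.06 in 3 WT libraries (exact permutation p = 0.943, adjusted p = 0.943). With it the ratio averaged -0.93 ± 2.19 over the MP and -3.54 ± 3.09 over the TN libraries (SD, n = 4 each; two-sided exact permutation p = 0.229, adjusted p = 0.98 over 10 tests). With it the mCre average was -2.25 ± 4.18 and the WT average -2.21 ± 1.18 (exact permutation p = 1, adjusted p = 1). The log2 ratio of miR-29a-5p to miR-29a-3p averaged -11.45 ± 1.13 in MP and -10.61 ± 0.92 in TN (exact permutation p = 0.343, adjusted p = 0.98), and -11.27 ± 1.45 in mCre and -10.79 ± 0.57 in WT (exact permutation p = 0.571, adjusted p = 0.98). For both miR-29b passengers against miR-29b-3p it averaged -4.71 ± 1.34 in MP and -4.48 ± 1.72 in TN (exact permutation p = 0.943, adjusted p = 1), and -4.73 ± 1.88 in mCre and -4.46 ± 1.10 in WT (exact permutation p = 0.857, adjusted p = 1).

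**Figure D5:**
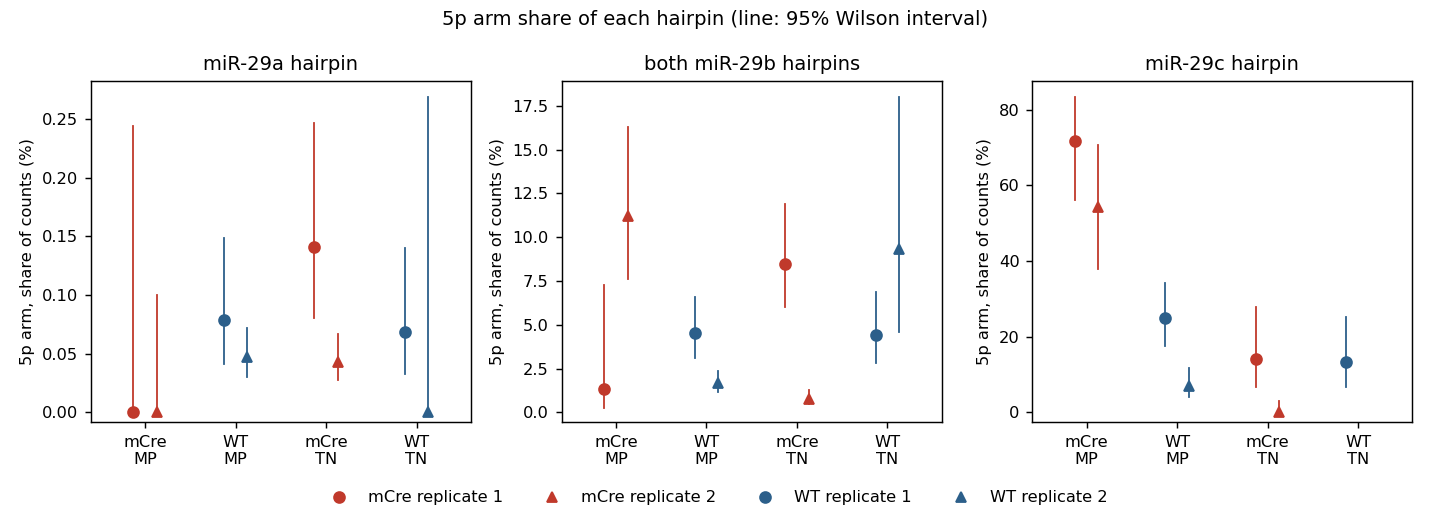
Share of the 5p arm in the counts of the miR-29a hairpin, of both miR-29b hairpins and of the miR-29c hairpin, in percent per library, with 95% Wilson intervals for counting error. The 5p share of miR-29c is 71.8% and 54.3% in mCre MP and at most 25% in the other libraries; WT TN replicate 2 has no point there, since both arms round to 0.

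The miRNAs outside the family whose levels were most like miR-29a-3p were found by Pearson correlation of log2 CPM over the 8 libraries, among 381 miRNAs. The values describe these libraries, which share their composition, and carry no p since the miRNAs were picked by them. miR-92a-1-5p, the passenger of the miR-92a-1 hairpin in the miR-17-92 cluster, came first (r = 0.99, Spearman rho = 0.95), followed by miR-26b-5p (r = 0.98, rho = 0.95) and miR-378d (r = 0.98, rho = 0.93). Next were miR-151-5p (r = 0.94, rho = 0.95) and miR-181c-5p (r = 0.93, rho = 0.88). Without mCre TN replicate 2 and WT MP replicate 2, the libraries farthest from the median of miR-29a-3p, r was between 0.79 and 0.95 for these 5. miR-26b-5p, an abundant miRNA in all 8 libraries, had 4553 and 8550.2 CPM in mCre MP and 14941.6 and 37811 in WT MP. It had 11535 and 51872 CPM in the TN libraries labelled mCre and 14051 and 5721 in those labelled WT. Like miR-29a-3p it was highest in the library labelled mCre TN replicate 2. Within the family, r with miR-29a-3p was 1.00 for miR-29b-3p, 0.90 for miR-29a-5p, 0.86 for miR-29c-3p, 0.37 for miR-29b-1-5p and -0.26 for miR-29c-5p.

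Among 20 miRNAs with known roles in T cell differentiation, 19 were tested. For MP against TN over both genotypes, 2 passed as higher, miR-146a-5p (log2 change 2.61 ± 0.37, SE, edgeR adjusted p = 0.0137), a feedback inhibitor of NF-kB signalling, and miR-21a-5p (1.87 ± 0.36, edgeR adjusted p = 0.0392), which is induced on activation. miR-181a-5p, which tunes T cell receptor sensitivity, passed as lower (-2.98 ± 0.61, edgeR adjusted p = 0.0423). That is 3 of 19, read against 2.36% of all miRNAs tested, where 9 passed, and 2 with the replicate number as a block. The list was chosen with earlier results of these data known, so its count is no independent evidence. The list's median change was 0.18, against -0.04 over all miRNAs tested. In mCre against WT within MP 0 of 19 passed by edgeR, and the median was -0.41 against -0.23.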

How the data were processed

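Per the labels' protocols, sorted splenic CD8+ T cells were lysed in Trizol and made into size-selected small RNA libraries by ligation. The authors deposited a table of expected counts whose fractions, in the values, mark reads shared between rows. The build was mm10 (submitters' processing notes); no aligner, counter or mismatch setting is named in those sources. Rows of 1 name were summed and rounded to whole counts; ratios used the unrounded deposited counts with a pseudocount of 0.5. Counts were filtered with filterByExpr (minimum count 10, minimum total 15), scaled by TMM and tested with edgeR 4.0.16 in R 4.3.3 (quasi-likelihood F test, robust), in a 4-group model (4 residual degrees of freedom) and an additive model (5). The SE of a log2 change was taken from it and the F statistic, as its size over the root of F. DESeq2 1.42.0 was an alternative. Log2 CPM for correlations used a prior count of 2. The code was tested on simulated data. The members and lists were chosen with earlier results of these data known. Every member is reported, and outside the family the 5 miRNAs most correlated with miR-29a-3p. Replicate numbers are shared between groups, but no label says that they pair samples. Alternatives were RLE and total count scaling, no filter, the highest row of a name, a replicate block, other pseudocounts, each library left out, and both TN replicate 2 libraries left out.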

Additional observations from a re-analysis of the deposited data

Results flagged for a closer look

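Members were marked where the groups moved without overlap in opposite directions. For miR-29a-5p each mCre library lay under each WT library in MP, and above each in TN as labelled after TMM scaling, a difference of the mCre minus WT differences of -7.29 CPM (-3.94 in MP and 3.35 in TN). The test of that difference did not pass (edgeR adjusted p = 0.301), and without scaling TN replicate 1 turned, with 2.29 per 1000000 in mCre and 2.31 in WT. As miR-29a-5p passed the low-count filter through WT MP and mCre TN libraries alone, where it lay higher, its flag is no independent evidence. miR-29b-2-5p showed the same pattern, with a difference of -1.89 CPM (-1.22 in MP and 0.67 in TN) from 19 counts in all; it did not pass the low-count filter, so the difference was not tested. miR-29c-3p was lower in MP than in TN among mCre libraries and higher among WT libraries, with a difference of -45.8 CPM (edgeR adjusted p = 0.35 for the difference). Without both TN replicate 2 libraries the fitted difference for miR-29c-3p was -1.51 ± 1.09 on the log2 scale (edgeR adjusted p = 0.835).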

How the results depend on the processing

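By edgeR on all 8 libraries, 0 members passed in each of the 7 comparisons. That count became 3 for mCre against WT in MP and 3 for mCre against WT over both subsets without both TN replicate 2 libraries. It became 2 for MP against TN in mCre and 2 for the genotype difference between subsets with no low-count filter. With DESeq2, which gave miR-29a-5p no adjusted p in 4 comparisons, it became 3 and 2 for the same comparisons and 1 for MP against TN over both genotypes. Leaving out 1 library gave 0 to 2 for the genotype difference between subsets and 0 in the other 6. Calls over all miRNAs, 0 by edgeR in 6 comparisons and 9 in MP against TN over both genotypes, moved too. MP against TN in mCre gave 24 with no filter, 44 by DESeq2 and 30 without both TN replicate 2 libraries; MP against TN in WT gave 6, 12 and 14; MP against TN over both genotypes gave 19, 28 and 49. The genotype difference between subsets gave 10 with no filter and 16 by DESeq2, mCre against WT in TN 1 with no filter, and mCre against WT 63 in MP and 27 over both subsets without both TN replicate 2 libraries. The log2 ratio of miR-29c-5p to miR-29c-3p, mCre minus WT, turned to 0.085 with pseudocount 1 and to 2.30 without both TN replicate 2 libraries, and that of the miR-29b 5p arms to 0.89. Without those libraries the TN genotype change turned to -0.98, -0.96 and -1.02 for miR-29a-3p, miR-29b-3p and miR-29c-3p, and MP against TN over both genotypes to 0.36 and 0.58 for miR-29a-3p and miR-29b-3p. miR-29c-3p there was -0.13 with total count scaling. miR-29b-1-5p, mCre against WT in TN, was -0.11 with RLE, -0.0088 with total count, -0.11 with DESeq2, -0.0021 with the replicate block, -0.15 with the highest row and -0.055 without both TN replicate 2 libraries. Its MP against TN change in mCre was -0.12 with total count and -0.055 with the block, and its genotype difference between subsets 0.026 with the highest row.

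Leaving out each library in turn turned the following log2 changes. For miR-29b-1-5p the range was -3.38 to 0.68 for mCre against WT in MP, -2.98 to 1.14 for MP against TN in mCre and -3.35 to 0.83 for the difference between subsets. miR-29c-5p ranged over -3.06 to 5.69 for that difference, where both ends leave 1 TN group with only a library at 0 counts. For mCre against WT in TN the ranges were -0.38 to 3.40 (miR-29a-3p), -0.47 to 3.23 (miR-29b-3p), -0.11 to 9.35 (miR-29c-3p), -0.15 to 0.11 (miR-29b-1-5p) and -4.69 to 4.05 (miR-29c-5p). The values 9.35, -4.69 and 4.05 leave 1 side with only a library at 0 rounded counts, so their size is not fixed by the counts. For mCre against WT over both subsets they were -1.68 to 0.78 (miR-29a-3p), -1.58 to 0.89 (miR-29b-3p), -1.48 to 0.64 (miR-29c-3p), -2.37 to 0.38 (miR-29a-5p), -0.98 to 0.20 (miR-29b-1-5p) and -0.26 to 1.28 (miR-29c-5p). For MP against TN over both genotypes they were -1.58 to 0.90 (miR-29a-3p), -1.44 to 1.03 (miR-29b-3p), -0.95 to 1.18 (miR-29c-3p), -2.47 to 0.22 (miR-29a-5p) and -0.56 to 0.66 (miR-29b-1-5p). Among the ratios, mCre minus WT ranged over -0.13 to 0.94 (miR-29c-3p to miR-29a-3p), -1.10 to 0.065 (miR-29a-5p to miR-29a-3p), -1.22 to 1.89 (miR-29c-5p to miR-29c-3p) and -0.87 to 0.46 (miR-29b 5p arms), and MP minus TN for the miR-29b 5p arms over -1.04 to 0.21. The causes were not tested.

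Replicate numbers are only shared: replicate differences correlated at -0.32 to 0.41 between groups, and with the replicate block 0 members passed in each comparison, while calls over all miRNAs for MP against TN over both genotypes were 2, against 9 without it. Passenger arms under about 30 counts a library limit what their values can show.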
